A study of Mus musculus with 12 samples.

Results

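The genes described here are 8 members of the MHC class I antigen presentation pathway, namely B2m, H2-K1, H2-D1, Tap1, Tap2, Tapbp, Nlrc5 and Erap1, out of 21900 protein-coding genes in the RefSeq gene table for GRCm38, the build also called mm10. They were taken from a list of names whose rule uses no measured value. This list, like the pathway lists and cell type markers below, was chosen with earlier results of these data known. Every peak that overlapped the mm10 interval of a gene was assigned to it. The measurement was chromatin immunoprecipitation with sequencing (ChIP-seq) of H3K79me2, that is dimethylation of lysine 79 of histone H3, which the enzyme DOT1L catalyses. CD8 T cells were isolated from male mice described as wild type for CreERT2 and for the floxed DOT1L allele and heterozygous for OT-I. They were activated through CD3 and CD28 and expanded to day 8 in 1 of 3 media, with treatment renewed every other day: 0.1% DMSO as the vehicle, SGC-0946 or EPZ-5676. The latter compounds are inhibitors of DOT1L, and both are labelled as given at 10 mM, a unit that is doubtful for compounds used on cells. Each treatment had 2 biological replicates with an immunoprecipitated and an input library each, 12 libraries in all, and yeast chromatin with HA-tagged H3 had been added to every sample. The shared OT-I transgene gives most of the cells a single T cell receptor, which recognises an ovalbumin peptide held by the class I molecule that H2-K1 encodes in mice of the b haplotype, and the background strain is not given in the sources used here.

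MHC class I molecules display short peptides from inside the cell to CD8 T cells, and nearly all nucleated cells, T cells included, carry them. A heavy chain, encoded by H2-K1 or H2-D1, pairs with the light chain beta-2 microglobulin, encoded by B2m. Tap1 and Tap2 encode the subunits of the transporter that moves peptides from the cytosol into the endoplasmic reticulum, Tapbp encodes tapasin, which holds the empty heavy chain at that transporter, and Erap1 encodes an aminopeptidase that trims the peptides there. Nlrc5 encodes the transactivator of class I genes. It is recruited by factors bound to the S, X and Y boxes of class I promoters, and interferon induces it and most of the pathway. H3K79me2 is placed during transcription and marks the first part of active genes, so it is usually read as a sign of transcribed chromatin.

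The promoter sequences are shown first because DMSO peaks covered all of the window in 4 of the 5 genes printed here and 197 of its 300 bases in Erap1. Over 27025 promoter windows of the same length, 12.5% were overlapped by a DMSO peak. The window of Tapbp, not printed here, also lay wholly under a DMSO peak. The windows come from the RefSeq table for GRCm38.p6, run from 250 bases before to 50 bases after the first listed start site, and are written 5′ to 3′ on the strand of the gene. They lie at chr2:122147437-122147736 for B2m (plus strand), chr17:34000298-34000597 for H2-K1 (minus strand), chr17:35262844-35263143 for H2-D1 (plus strand), chr17:34187306-34187605 for Tap1 (plus strand) and chr13:74639603-74639902 for Erap1 (plus strand). Capitals mark matches, on either strand, to 5 promoter motifs that are spelled out after the sequences.
B2m: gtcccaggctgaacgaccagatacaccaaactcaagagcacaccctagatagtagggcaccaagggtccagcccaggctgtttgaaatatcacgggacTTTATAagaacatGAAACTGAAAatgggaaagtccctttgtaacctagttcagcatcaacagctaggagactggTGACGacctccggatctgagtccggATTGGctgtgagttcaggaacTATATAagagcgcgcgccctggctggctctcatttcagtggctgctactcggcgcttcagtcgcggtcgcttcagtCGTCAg
H2-K1: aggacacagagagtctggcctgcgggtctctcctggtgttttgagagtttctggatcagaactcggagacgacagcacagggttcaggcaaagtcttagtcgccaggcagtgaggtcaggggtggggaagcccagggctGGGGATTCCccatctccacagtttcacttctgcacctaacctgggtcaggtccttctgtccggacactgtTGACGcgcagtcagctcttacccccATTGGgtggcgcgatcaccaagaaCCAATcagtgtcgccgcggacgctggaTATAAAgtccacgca
H2-D1: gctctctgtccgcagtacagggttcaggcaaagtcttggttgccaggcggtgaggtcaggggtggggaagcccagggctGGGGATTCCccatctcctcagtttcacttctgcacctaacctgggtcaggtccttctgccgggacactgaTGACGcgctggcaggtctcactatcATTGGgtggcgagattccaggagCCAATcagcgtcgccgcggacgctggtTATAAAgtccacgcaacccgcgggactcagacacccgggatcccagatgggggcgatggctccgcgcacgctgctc
Tap1: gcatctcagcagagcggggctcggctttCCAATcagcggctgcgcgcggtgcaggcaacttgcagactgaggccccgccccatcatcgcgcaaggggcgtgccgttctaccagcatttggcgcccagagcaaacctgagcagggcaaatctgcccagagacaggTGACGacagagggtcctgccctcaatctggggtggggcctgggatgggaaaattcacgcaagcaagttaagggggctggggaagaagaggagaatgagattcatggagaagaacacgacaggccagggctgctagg
Erap1: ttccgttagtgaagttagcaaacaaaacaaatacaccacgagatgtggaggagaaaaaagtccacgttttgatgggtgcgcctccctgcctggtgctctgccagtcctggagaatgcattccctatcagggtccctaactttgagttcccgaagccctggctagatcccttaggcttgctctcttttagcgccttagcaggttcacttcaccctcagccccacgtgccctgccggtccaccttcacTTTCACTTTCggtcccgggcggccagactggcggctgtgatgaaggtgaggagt

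CCAAT, the core of the Y box, was found in 5 of the 6 members that had a window, all but Erap1, against 37.9% of 27025 promoter windows of the same length in the table. TGACG, the core of the X2 box, was found in 4 of the 6, namely B2m, H2-K1, H2-D1 and Tap1, against 21.0% of all windows. Only B2m, H2-K1 and H2-D1 had TGACG followed by CCAAT on the opposite strand. In Tap1 the match to CCAAT began at base −222, before the match to TGACG, which began at base −86. Tapbp had no match to TGACG. The matches to CCAAT in Tap1 and Tapbp are thus not shown here to be part of Y boxes. An interferon-stimulated response element, searched as GAAA, any 2 bases and GAAA again, stood in B2m and Erap1, against 3.49% of windows. The match in Erap1 began at base −4 and ran across the listed start. The search allowed no mismatch, so a window without a match may still hold a near match. A kappa B site, searched as GGGNNTTCC, stood in H2-K1 and H2-D1, against 5.72%. The TATA box, searched as TATANA, was present in B2m, H2-K1 and H2-D1, against 25.4%, and the match in B2m that begins at base −32 reads the same on both strands. The windows of H2-K1 and H2-D1, genes that are close paralogs, carried the same letters at 211 of 239 aligned bases (88.3%). Their matches stood in the same order, with TGACG followed by CCAAT in both orientations and then TATAAA. That last match began at base 36 in H2-K1 and at base −26 in H2-D1, counted from the listed start. The other shared matches were displaced in the same direction, with TGACG at base −41 in H2-K1 and −101 in H2-D1. H2-K1 has 2 listed windows, of which the first was used, and distances from its start site rest on that choice. Matches of different motifs did not overlap. A match is a description of letters, and binding by any factor was not measured.

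The values come from 3 lists of broad peaks, 1 for each treatment, with 12578 peaks for DMSO, 4443 for EPZ-5676 and 55 for SGC-0946. A list was treated as a pool of the replicates of its treatment, so the spread between replicates is unknown, no test could be made and the read depth behind a peak is unknown. A gene is called marked in a list when at least 1 base of a peak lies in its interval. Fold enrichment is the authors' ratio of signal over background for a peak, and it ranks peaks within 1 list only. Markers fitted the labelled cell type. Peaks in the DMSO list lay on 7 of 7 T cell genes and on Cd8a and Cd8b1, and on 0 of 3 CD4 T cell, 0 of 5 B cell, 0 of 5 myeloid and 0 of 5 fibroblast and epithelial genes. Of the dendritic cell genes 1 of 5 was marked, Zbtb46, through peaks that also covered neighbouring genes, and of the NK cell genes 1 of 4, Eomes, which effector CD8 T cells also express.

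All 8 genes carried H3K79me2 in vehicle-treated cells, 7 still had a called peak with EPZ-5676, and 1 had a called peak with SGC-0946. The same rule marked 34.5% of all protein-coding genes in the DMSO list, 15.9% in the EPZ-5676 list and 0.142% in the SGC-0946 list. Among genes marked in DMSO, 46.1% were also marked with EPZ-5676 and 0.41% with SGC-0946. The gene without an EPZ-5676 peak was Erap1, and the gene with an SGC-0946 peak was B2m. Marking in DMSO covered from 4.23% of the Erap1 interval to 100% of B2m and Tap1. By the DMSO fold enrichment of the highest peak the order was B2m at 14.0, H2-D1 at 12.6, Tap1 and Tap2 on 1 shared peak at 9.75, H2-K1 at 9.63, Nlrc5 at 8.56, Tapbp at 5.36 and Erap1 at 4.19. Whether neighbours in this order differ beyond replicate spread cannot be told from pooled lists.

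**Figure D1:**
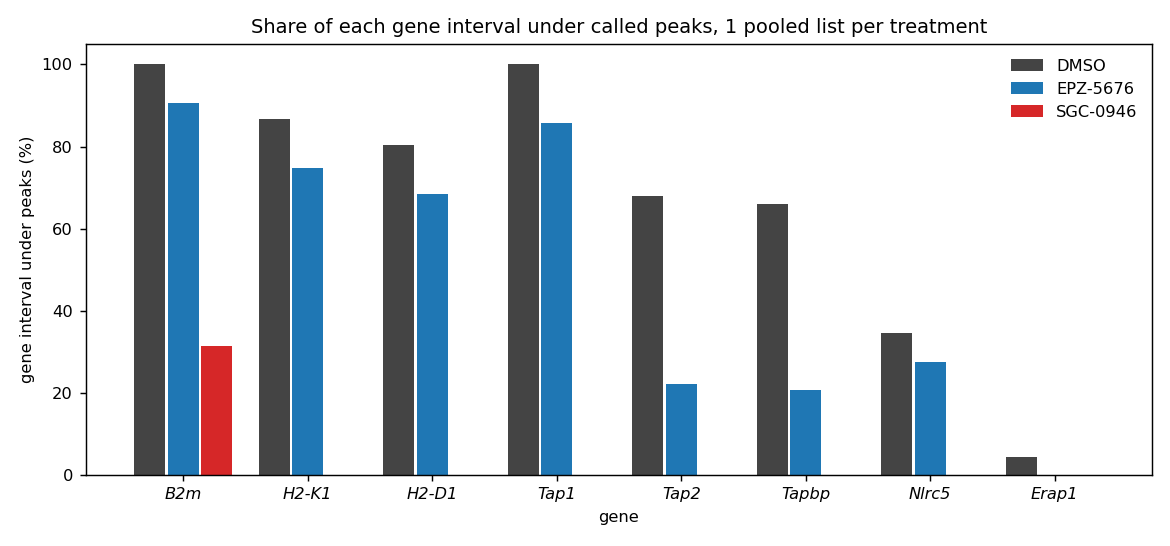
Share of each gene interval, in percent, under called peaks of the DMSO (dark), EPZ-5676 (blue) and SGC-0946 (red) lists, with 1 pooled list for each treatment and therefore no error bars. EPZ-5676 bars stand close to the DMSO bars in B2m, H2-K1, H2-D1, Tap1 and Nlrc5 and well below them in Tap2 and Tapbp, and only B2m has an SGC-0946 bar.

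B2m, the light chain gene, was the most strongly marked member in the DMSO and EPZ-5676 lists. It lies on chromosome 2 from 122147687 to 122153082. Its DMSO peak of 8415 bases had a fold enrichment of 14.0 and a −log10 q of 39.3, ranked 15 of 12578 peaks, covered the whole gene and reached 1937 bases before its start and 1082 bases past its end. The EPZ-5676 peak of 5332 bases had a fold enrichment of 25.7 in its own list, where it ranked 7 of 4443. It began 444 bases before the gene and ended 508 bases short of its end, so that 90.6% of the DMSO-covered bases in the gene were covered. Of the whole DMSO peak, which runs past both ends of the gene, 63.4% was covered. The SGC-0946 peak of 1688 bases lay wholly inside the gene, from 257 to 1944 bases after the start site, with a fold enrichment of 3.68 and a −log10 q of 1.81, and ranked 31 of 55. The 3 peaks were thus nested, each within the one before, with the SGC-0946 peak in the first part of the gene body. In the SGC-0946 list B2m lost its call when a −log10 q of at least 5 or a fold enrichment of at least 4 was required.

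The B2m peaks cannot be given to B2m by position alone. The whole gene lies inside the interval of Patl2, an RNA-binding protein gene that runs on the opposite strand over 66082 bases, and the B2m peak was the 1 peak in Patl2 in each of the 3 lists. When each peak went only to the gene it overlapped most, the DMSO and EPZ-5676 peaks passed from B2m to Patl2. The nesting of the intervals fixed this outcome, so it does not tell which gene the peaks belong to. The SGC-0946 peak overlapped both genes by 1688 bases, and it stayed with B2m only because ties went by alphabetical order. On the higher side, Trim69, which starts 7626 bases above B2m and also lies inside the Patl2 interval, Terb2 and Sord had no peak in any list. On the lower side Spg11 had 2.24 kb of DMSO peak at 3.82-fold and no EPZ-5676 peak, while the next genes, Eif3j1 and Ctdspl2, were marked in both lists, over 14.7 and 18.0 kb in DMSO and 5.76 and 5.18 kb with EPZ-5676.

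The classical heavy chain genes H2-K1 and H2-D1 were covered over most of their length in both the DMSO and the EPZ-5676 lists. H2-K1 lies on chromosome 17 from 33996012 to 34000619 on the minus strand, so that its higher coordinate is its start. Its DMSO peak of 5625 bases had a fold enrichment of 9.63 and a −log10 q of 27.3, and its EPZ-5676 peak of 5063 bases had 11.6 and 58.2 in its own list. The peak edges on the start side were 13 bases apart between the lists, at 1631 and 1618 bases beyond the annotated start, and the other edge lay 549 bases further in with EPZ-5676. H2-D1 lies on chromosome 17 from 35263094 to 35267497 on the plus strand. Its DMSO peak of 4053 bases ranked 38 of 12578 by fold enrichment, and its EPZ-5676 peak of 3076 bases, at 14.6-fold, ranked 81 of 4443. With EPZ-5676 the H2-D1 peak began 63 bases before the gene, against 518 bases in DMSO, and was shortened by 455 bases on the start side and 522 bases on the other. Of the DMSO-covered bases in the gene, 86.3% were covered with EPZ-5676 in H2-K1 and 85.2% in H2-D1. Of the whole DMSO peak, 90.0% was covered at H2-K1 and 75.9% at H2-D1.

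With SGC-0946, H2-K1 had a peak beside the gene rather than in it, and H2-D1 had none. The interval of 582 bases on chromosome 17 from 34000700 to 34001281 began 81 bases beyond the annotated start of H2-K1 and ran from −934 to −353 bases relative to the start site listed for the printed window. Its fold enrichment of 5.26 ranked 8 of 55 and its −log10 q was 5.09, 1 of 9 SGC-0946 peaks with a value of at least 5. It lay on the DMSO and EPZ-5676 peaks of H2-K1 and overlapped no annotated gene. Widening gene intervals by 2000 bases on both sides made H2-K1 the second member marked with SGC-0946. H2-K1 and H2-D1 share most of their sequence, as the aligned promoters above show, and how reads that fit both genes were placed is not given in the sources used here, so the division of signal between them is uncertain.

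**Figure D2:**
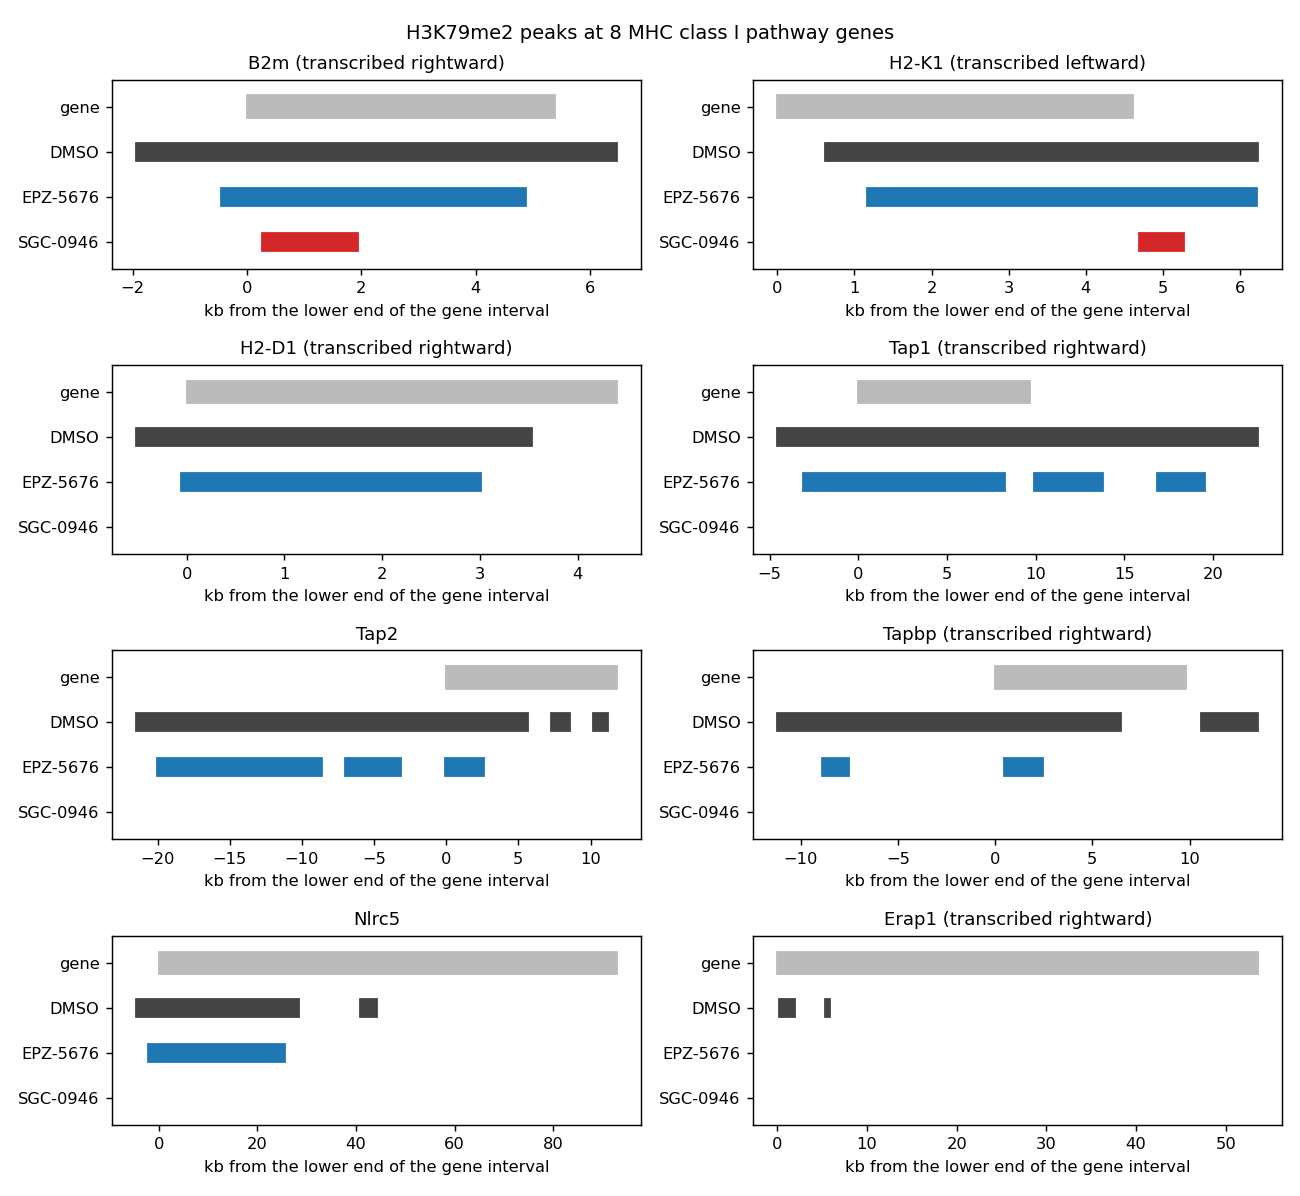
Called peaks at each of the 8 genes, drawn to scale in kb from the lower end of the gene interval (grey), with the DMSO (dark), EPZ-5676 (blue) and SGC-0946 (red) lists in separate rows and a scale of its own in each panel. Every EPZ-5676 and SGC-0946 peak shown lies within a DMSO peak, and the SGC-0946 peak of H2-K1 lies beyond the end where transcription starts.

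The transporter genes Tap1 and Tap2 shared 1 DMSO domain with the immunoproteasome genes Psmb9 and Psmb8, whose products cut proteins into peptides suited to class I. This peak spanned 27135 bases on chromosome 17 from 34182993 to 34210127, at a fold enrichment of 9.75 and a −log10 q of 22.2. It covered all of Tap1 (34187556 to 34197225) and Psmb8, 4338 of the 5301 bases of Psmb9 and the first 5649 bases of the Tap2 interval (34204479 to 34216321). The value is an average over the peak and cannot be divided among the 4 genes. Tap2 held 2 further DMSO peaks of 1351 and 1060 bases, at 2.85-fold and 3.30-fold, that no EPZ-5676 peak overlapped.

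With EPZ-5676 the domain was called as 3 separate peaks, with 4654 uncalled bases between them. The first, of 11417 bases at 6.40-fold, covered the upper part of Psmb9 and 8283 bases of Tap1. The second, of 3917 bases, lay over Psmb8 with the highest fold enrichment of the 3, 9.04, and a −log10 q of 32.7. The third, of 2703 bases at 5.35-fold, began 69 bases below the Tap2 interval and covered its first 2634 bases. The 3 peaks together covered 66.5% of the DMSO domain, and by gene 97.5% of the DMSO-covered bases of Psmb8, 85.7% of Tap1, 67.1% of Psmb9 and 32.7% of Tap2. The genes of the transporter subunits, which work as a pair, differed in the extent called, with Tap1 covered nearly end to end and Tap2 near its lower end. Both shares count the domain that the 2 genes share. When each peak went only to the gene it overlapped most, the domain passed to Tap1. Tap2 then had 2411 DMSO peak bases and 2634 EPZ-5676 peak bases. Those EPZ-5676 bases lie on the domain, and no EPZ-5676 peak lay on the 2 DMSO peaks left in Tap2. The counts therefore give no share for Tap2, and that rule cannot decide whether the contrast holds. Within the domain, EPZ-5676 covered 2634 of the 5649 bases in Tap2. No SGC-0946 peak lay on the domain. Around it, the class II genes H2-DMb1, 27327 bases below Tap1, and H2-Ob, 22584 bases above Tap2, had no peak in any list.

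**Figure D3:**
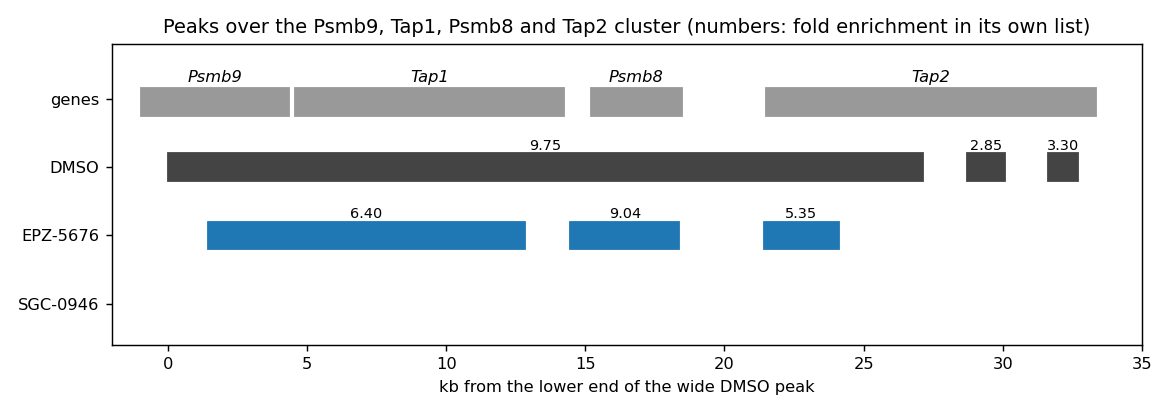
Called peaks over Psmb9, Tap1, Psmb8 and Tap2 in kb from the lower end of the wide DMSO peak, with the fold enrichment of each peak in its own list printed above it. A single DMSO domain of 9.75-fold corresponds to 3 EPZ-5676 peaks of 6.40, 9.04 and 5.35, and the SGC-0946 row is empty.

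Tapbp, the tapasin gene on chromosome 17 from 33919478 to 33929290, also lay under a DMSO domain shared with neighbours. The domain of 17668 bases, at 5.36-fold and a −log10 q of 7.95, covered all of Daxx, a histone chaperone gene, all of Zbtb22, a zinc finger gene, and the first 6472 bases of Tapbp, along with the lncRNA genes BC051226 and Gm19412. With EPZ-5676, 2 peaks that together covered 19.6% of the domain were called on it. The peak in Tapbp spanned 2034 bases from 443 to 2476 bases after the start site, at 3.61-fold and a −log10 q of 3.59, and covered 31.4% of the DMSO-covered bases in the gene. It did not touch the promoter window, all of which lay under the DMSO peak. The other EPZ-5676 peak covered 1.43 kb of Daxx, and Zbtb22 had none. Requiring a −log10 q of at least 5, or a fold enrichment of at least 4, left Tapbp without an EPZ-5676 peak. Rgl2, which starts 224 bases above Tapbp, had a separate DMSO peak of 2946 bases and no EPZ-5676 peak.

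Erap1, the trimming aminopeptidase gene on chromosome 13 from 74639573 to 74693205, had the weakest marking of the 8. Its DMSO peaks were 1800 bases at 4.19-fold, from 147 bases before to 1652 bases after the start site, and 471 bases at 2.62-fold, starting 5081 bases after it. Together they covered 2271 of its 53.6 kb, and neither overlapped another annotated gene. No EPZ-5676 or SGC-0946 peak lay in the gene. The −log10 q of the peaks was 4.10 and 1.01, so Erap1 lost its DMSO call when at least 5 was required. In the decile of DMSO-marked genes that holds Erap1, with fold enrichments from 4.06 to 4.47, 33.7% of 757 genes had an EPZ-5676 peak. Cast, a calpain inhibitor gene whose interval overlaps that of Erap1, had 5 DMSO peaks of its own over 6.28 kb and none with EPZ-5676.

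Nlrc5, the transactivator gene on chromosome 8 from 94434335 to 94527272, had the longest marked stretch of the 8. A DMSO peak of 33025 bases at 8.56-fold began 4594 bases below the lower end of the gene and covered its first 28431 bases, and a second peak of 3594 bases at 2.64-fold started 40717 bases into the interval. The EPZ-5676 peak of 27656 bases, at 7.84-fold and a −log10 q of 20.7, lay wholly inside the first DMSO peak, 2440 bases in from its lower edge and 2929 bases in from its upper edge. It covered 83.7% of that peak and 79.6% of all DMSO-covered bases in the gene. The second DMSO peak had no EPZ-5676 peak on it, and no SGC-0946 peak lay in Nlrc5. Both long peaks also covered the lncRNA gene 9330175E14Rik, of 1977 bases. Of its nearest coding neighbours, Cpne2, 5402 bases above it, had no peak in any list. Herpud1, 38964 bases below it, was, like Nlrc5, marked in DMSO at 9.80-fold and with EPZ-5676 over 2.96 kb.

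Set against all 7563 genes marked in DMSO, the 8 genes differed in how much of their DMSO extent was called with EPZ-5676. The extent is given as EPZ-5676 peak bases in percent of DMSO peak bases in a gene, which can pass 100 in other genes because EPZ-5676 peaks there need not lie on DMSO peaks. B2m, H2-K1, Tap1, H2-D1 and Nlrc5 had 90.6%, 86.3%, 85.7%, 85.2% and 79.6%, which stood at percentiles 96.9, 95.0, 94.9, 94.8 and 92.5 of the 3486 genes marked in both lists. Tap2 and Tapbp had 32.7% and 31.4%, at percentiles 47.8 and 46.1, and Erap1 had 0. The median over the 8 genes was 82.4%. Over the 3486 genes marked in both lists it was 34.4% (interquartile range 18.4 to 55.4), and over all DMSO-marked genes it was 0. Over all genes its median was 0 in each of the 5 lowest deciles of DMSO fold enrichment and 64.4% in the highest decile (757 genes from 7.87 to 16.5), where 94.5% had an EPZ-5676 peak. Of the 6 members in that decile, 5 lay above its median. Tap2 lay below it, and Tap2 is in that decile only through the domain it shares with Tap1. Tapbp, in the seventh decile from the lowest, lay above the median there of 19.0%. The 8 genes had a median length of 9.74 kb and a median DMSO coverage of 74.2%. Genes marked in both lists had medians of 23.97 kb and 44.5%. Bases that a peak loses outside a gene do not lower the share of that gene. With gene intervals widened by 2000 bases, the median over the 8 genes was 69.63%. Whether they differ from genes of like length and coverage was not tested. These comparisons are descriptions of single pooled lists, and genes that share a peak, as Tap1 and Tap2 do, are not separate observations.

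**Figure D4:**
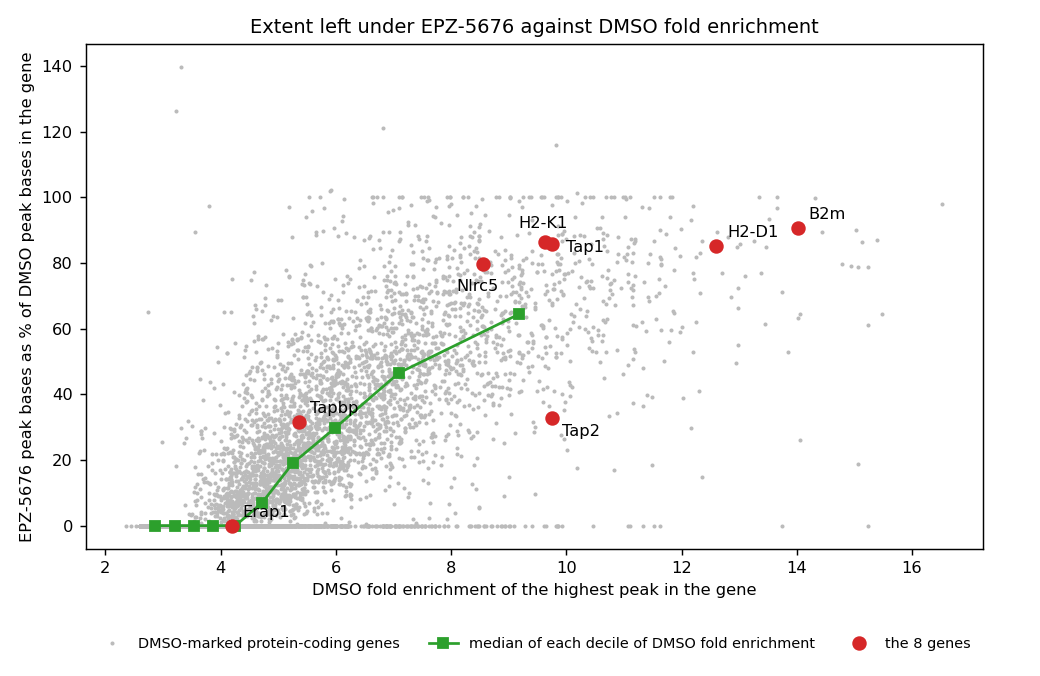
EPZ-5676 peak bases as a percent of DMSO peak bases in a gene, against the DMSO fold enrichment of the gene's highest peak, for 7563 DMSO-marked protein-coding genes (grey), the median of each decile of fold enrichment (green squares) and the 8 genes (red). B2m, H2-D1, H2-K1, Tap1 and Nlrc5 lie above the green line at the right, while Tap2, at 9.75-fold and 32.7% with the domain it shares with Tap1 counted, lies below it.

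The inhibitors are compared at the same labelled dose and day, by the called extent. In B2m, peaks covered 4888 bases with EPZ-5676 and 1688 bases with SGC-0946, out of 5396 covered in DMSO. The other 6 genes with an EPZ-5676 peak, from H2-D1 with 3013 bases to Nlrc5 with 25502, had no SGC-0946 peak inside the gene, and Erap1 had neither. The called extent was thus lower with SGC-0946 in each of the 7 genes, as it was over all protein-coding genes (3486 and 31 genes marked). With 1 pooled list each and depth unknown, an interval for the difference could not be computed.

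The reach of peaks around the listed start sites was taken only where a peak covered the start site, so reach on both sides was set by this choice. Of 17492 protein-coding genes with a promoter window, 2399 had the start site under a DMSO peak, and in these the peak ran a median of 984 bases upstream and 4589 bases downstream. Downstream reach was the larger in 76.7% of them. All 6 members with a window were among the 2399. Upstream reach was 147 bases in Erap1, 518 in H2-D1, 1903 in H2-K1 and 1937 in B2m, and 4563 in Tap1 and 11196 in Tapbp, whose peaks also covered genes on that side. Downstream reach was the larger in each member but Tapbp, where it was 6471 bases. With EPZ-5676, the start site lay under a peak in 510 genes, with a median of 504 bases upstream. Those included B2m with 444 bases, H2-D1 with 63, Tap1 with 3134 and H2-K1 with 1890, the last at percentile 76.1. No gene with a window had its start site under an SGC-0946 peak.

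The wider pathway was described through 7 lists, in which 73 genes are not members. Of these 73 genes 50 were marked in DMSO, 38 with EPZ-5676 and 0 with SGC-0946. Of 20 class I heavy chain genes, H2-K1 and H2-D1 included, 10 were marked in DMSO and 8 with EPZ-5676. H2-D1 had the highest DMSO value and H2-M3, which presents formylated peptides, the lowest marked one at 2.92, with no EPZ-5676 peak. Between them stood the nonclassical genes of the H2-Q and H2-T groups, such as H2-Q7 at 11.0, H2-Q4 at 9.01 and H2-T23 at 6.79. Their EPZ-5676 peak bases came to 80.9%, 44.3% and 63.7% of their DMSO peak bases. The share was lower in the other marked genes of these groups, at 36.4% in H2-Q6, 32.1% in H2-T22, 14.6% in H2-T10, listed as a pseudogene, and 0 in H2-T24. These genes resemble one another in sequence, which makes the placement of their reads uncertain. Unmarked genes of this list included H2-Q1, H2-Q2, H2-Q10, H2-T3 and H2-M2. H2-Q1 and H2-Q2 are the nearest coding genes above H2-D1, at 53028 and 74810 bases.

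The chaperone and loading list was marked in all 12 genes in DMSO and in 10 with EPZ-5676. Its highest DMSO value was 8.19 at Calr, which encodes calreticulin, a member of the peptide loading complex, and its lowest was 4.04 at Sec61b, a subunit of the protein channel of the endoplasmic reticulum, on a peak shared with Alg2. EPZ-5676 peak bases as a share of DMSO peak bases came to 48.9% in Calr, 66.7% in Canx, 45.8% in Pdia3 and 22.4% in Tapbpl, a relative of tapasin. All 5 immunoproteasome and proteasome activator genes were marked in DMSO, from Psmb8 and Psmb9 at 9.75 to Psmb10 at 3.38, and 4 with EPZ-5676, all but Psmb10. Of 8 peptidase genes 6 were marked in DMSO and 3 with EPZ-5676. Tpp2, encoding a large cytosolic peptidase, led at 8.28, Lap3 was lowest at 2.80 and Thop1 and Nln had no peak. Lnpep, which lies in the same enzyme family as Erap1, was marked over 47.0 kb in DMSO and 32.2 kb with EPZ-5676, against 2.27 kb and 0 in Erap1.

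Among 15 regulators of class I transcription, 14 were marked in DMSO and 11 with EPZ-5676. Irf1, an interferon-induced activator of Nlrc5 and class I genes, stood highest at 10.1, with EPZ-5676 peak bases at 88.3% of its DMSO peak bases, and Rfxap lowest at 4.02. Of the RFX subunits that bind the X box together, Rfxank and Rfxap were marked in DMSO only and Rfx5 in no list, while the Y box factor genes Nfya, Nfyb and Nfyc were marked in both. Interferon receptor and kinase genes were marked in 6 of 7 cases in DMSO and 4 with EPZ-5676, from Ifnar2 at 9.62 to Ifngr2 at 3.42, with Tyk2 unmarked. In contrast, 1 of 10 MHC class II genes was marked in either list. That gene was H2-DMa, on a DMSO peak of 17.1 kb at 10.1-fold that also covered Brd2, a chromatin reader gene, and Ciita, Cd74, H2-Aa, H2-Ab1 and H2-Eb1 had no peak. Shares of marked genes in these lists read against 34.5% of protein-coding genes in DMSO and 15.9% with EPZ-5676.

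**Figure D5:**
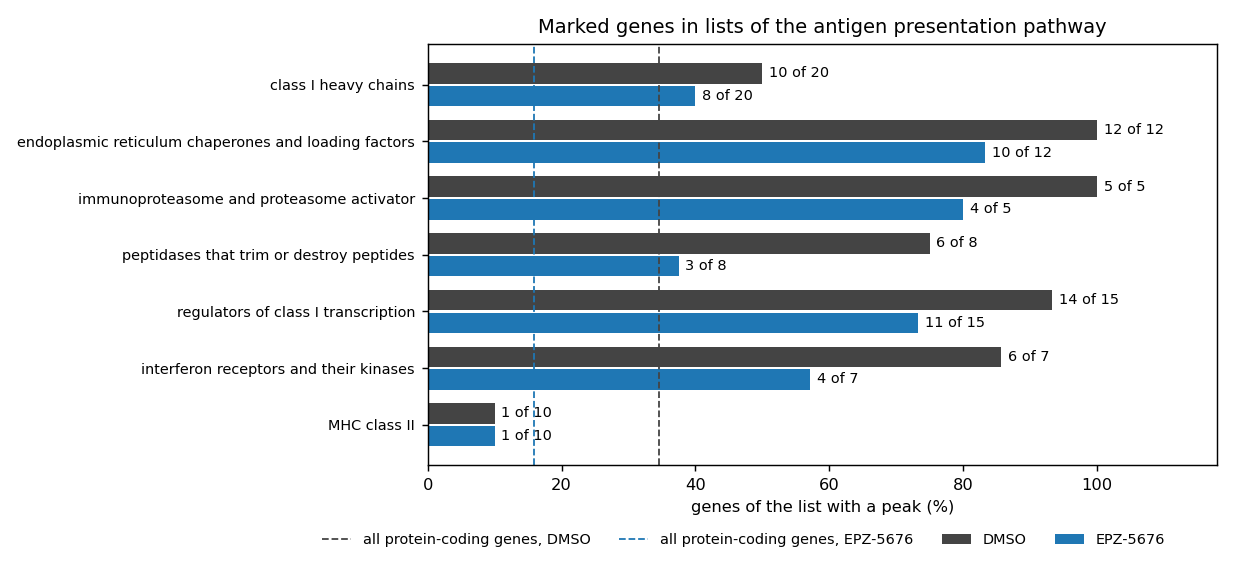
Percent of the genes in each of 7 pathway lists with a DMSO (dark) or EPZ-5676 (blue) peak, with counts beside the bars and dashed lines at the share of all protein-coding genes, 34.5% and 15.9%. Each list but MHC class II lies above the dashed lines in both treatments.

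The genes most like each member were sought by the distance between log10(bases + 100) of peak bases in the gene over the 3 lists, leaving out genes on a shared peak. For B2m they were Arl4c and Pim1, with distances of 0.255 and 0.271, and peaks in Arl4c covered 3.97 kb in DMSO, the same 3.97 kb with EPZ-5676 and 2.73 kb with SGC-0946. H2-D1 was nearest to Gzmb, the granzyme B gene, at 0.00725, with 3.50 kb in DMSO and 3.06 kb with EPZ-5676 in Gzmb, and to Trir. Nearest were Zfp36l1 and Fbxl14 for H2-K1, Sash3 and Ppp1r18 for Tap1, Ppp1r8 and Tdp2 for Tap2, Jmjd6 and Kdm3a for Tapbp, and Cnot6l and Tpst2 for Nlrc5. The profile of Erap1, 2271 bases in DMSO and 0 in the other lists, was matched by Dnajb4 and Exoc3. The measure rests on 3 values for each gene and describes called extent alone.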

How the data were processed

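H3K79me2 ChIP-seq was measured in 12 libraries. The data used are 3 deposited lists of broad peaks. Among tools, MACS2 2.2.7.1, Picard and BWA 0.7.17-r1188 appear in the submitters' processing notes, and among builds sacCer3 and mm10, also called GRCm38. The peak threshold, the way replicates were combined and the use of input and yeast reads are not stated there. The deposited fold enrichment is the authors' ratio over background, averaged over a peak. The deposited −log10 q is the authors' average over a peak. The score that the authors deposited for display entered no result.

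Peak starts were shifted to 1-based coordinates and overlapped with gene intervals from the RefSeq table for GRCm38.p6 (21900 protein-coding genes), with Python 3.11.15, pandas 2.3.3 and numpy 2.4.6. Overlap counting was tested on simulated intervals. The table gives no exons, and positions within introns or exons were not analysed here. Promoter windows matched 6 of the 8 genes, and those of H2-K1 and H2-D1 were aligned with Biopython 1.88. No test was made, since each treatment has 1 list. The members, lists and markers were chosen with earlier results of these data known. Named were all members, genes sharing a peak with one, the highest, lowest and up to 5 unmarked genes of each list, and the 2 genes nearest to each member. Other genes of a list and the flanking genes were named after their values were seen. Alternatives changed the peak threshold, the overlap rule, the gene interval and the assignment of shared peaks.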

Additional observations from a re-analysis of the deposited data

How the results depend on the processing

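The count of members marked in DMSO (8) stayed between 6 and 8 under the 6 alternatives, and the count with EPZ-5676 (7) between 6 and 7 under 5 of them. It was 4 when at least 50% of the gene interval had to lie under peaks, since Tap2, Tapbp and Nlrc5 are covered in part. The 1 member marked with SGC-0946 became 0 with a −log10 q of at least 5, 0 with a fold enrichment of at least 4 and 0 with at least 50% of the interval covered, and 2 with intervals widened by 2000 bases, which added H2-K1. When each peak went only to the gene it overlapped most, 7 members were marked in DMSO and 6 with EPZ-5676. B2m, which lies inside the Patl2 interval, was not among them. Tap2 had more EPZ-5676 than DMSO peak bases (2634 and 2411), at places that do not overlap. B2m kept its SGC-0946 peak under that rule only through a tie with Patl2 that was settled by alphabetical order. The median share of DMSO peak bases under EPZ-5676 peaks, 82.4%, lay between 82.4% and 85.7% under 5 alternatives. Of these, 3 covered fewer genes (7 without Erap1, 6 without Erap1 and Nlrc5, and 7 without B2m), so that the range partly reflects which genes remained. In the last of these 3, the median also counted Tap2 by bases that do not overlap. The median fell to 69.63% with widened intervals, where the added bases lie outside the genes. Peak bases of single members in single lists changed in 14 of 24 cases with widened intervals, 5 with each threshold and 3 with the assignment rule. Over all protein-coding genes, 7563, 3486 and 31 were marked in the DMSO, EPZ-5676 and SGC-0946 lists, against 3786, 1682 and 5 with the −log10 q threshold, 4650, 1815 and 12 with the fold enrichment threshold and 1845, 456 and 1 with 50% coverage. No paired analysis was possible because the lists hold no values of single replicates, and leaving out a replicate could not be run for the same reason. Read depth is unknown, and a gene without a peak is one where none was called.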
